A study of Caenorhabditis elegans with 26 samples.

Results

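The 5p arms of miR-42, miR-43, miR-44 and miR-45 are short RNAs cut from the 5′ side of 4 hairpins of chromosome II of *Caenorhabditis elegans*. They are 4 of the 439 mature sequences listed in the count table, and all 4 passed the filter on low counts, which kept 217 sequences for testing. The members were chosen by their cycling levels over the hours in these same libraries, with the miR-42 to miR-44 cluster set against the separate miR-45 locus. Their levels, fitted cycles and ratios by hour are therefore a description without a test. Tests are given for the contrast between the strains and for the opposite 3p arms, which the choice did not use. Strain tests of the 5p arms that include the shape over the hours compare cycles the choice drew on, and are not independent of it.

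Whole larvae were sampled every hour from 18 h to 30 h after arrested L1 larvae had been placed on food at 25 °C, without other treatment. N2 served as the wild type. The other strain, HW2643, has the genotype *mir-235(xe181[seed_mutant])*, an edit of the seed of miR-235, below *mir-235(seed_mut)* or simply the mutant. Each strain gave 13 libraries, 1 per hour, so no hour has a replicate, and successive hours come from 1 series of plates per strain. The edited locus is not among the hairpins described here, and the same edit was present at each of the mutant's hours.

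miRNAs are made from a hairpin that Dicer cuts into a duplex of a 5p and a 3p arm. One arm, the guide, is retained by an Argonaute protein and pairs with target mRNAs through its seed, whereas the other, the passenger, is usually discarded and short-lived. Larval development in this nematode is a series of molts, and many transcripts, some miRNA precursors among them, are made in a pulse once per larval stage. The 3p arm of miR-42 has the seed of the miR-35 family, whose abundant embryonic pool is cleared as larvae hatch. From another time course, the paper reported rhythmic levels of every member of this family in larvae, and generally substantial accumulation. The 3p arms of miR-44 and miR-45 share 1 sequence and are the guides of their hairpins, so their reads cannot be assigned to a hairpin. The 5p arms of this pair were counted apart, and they are the only readout here that separates these hairpins.

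In the WBcel235 annotation, mir-42, mir-43 and mir-44 lie in this order on the plus strand of chromosome II, with 4 bases between the annotated genes of mir-42 and mir-43 and 15 bases between those of mir-43 and mir-44. mir-45 lies on the minus strand of the same chromosome, 8771 bases from mir-42, with 3 annotated genes between, among them the protein-coding ZK930.6. Antisense non-coding RNA genes overlap mir-42 and mir-43 (ZK930.12) and mir-45 (ZK930.13). Reads were counted by strand, so transcripts of these antisense genes do not enter the counts. The files use the ce10 build, and no coordinate was carried across.

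Library totals ranged from 1342771 to 3587330 counts in N2 and from 2658960 to 4279734 in the mutant. The shallowest library, N2 at 23 h, also had the lowest TMM scaling factor, 0.697, against 0.869 to 1.13 in the other N2 libraries and 0.900 to 1.16 in the mutant. Several values that turn on this library are given with and without it. The larvae held RNA of several tissues at every hour, with miR-1-3p of muscle at 20771 to 40020 CPM (counts scaled by each library's total, as usual), miR-60-3p of the intestine at 21.6 to 123 CPM, and the neuronal lsy-6-3p at 11.9 to 31.05 CPM. Their part in the results was not tested.

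Within the cluster, levels of miR-42-5p stood high at 21 to 22 h, low at 25 to 26 h, and high again at 28 to 29 h in N2. In N2 its level was 153.9, 141.2, 248.1, 393.3, 368.9, 255.4, 217.1, 124.9, 119.8, 171.6, 253.5, 268.2 and 195.0 CPM at the 13 hours from 18 h to 30 h. In the mutant the same arm was at 126.3, 158.1, 284.4, 343.2, 325.1, 232.6, 200.1, 178.4, 154.2, 265.5, 201.8, 193.3 and 115.9 CPM over the same hours. Both strains were highest at 21 h, and the second high stood at 29 h in N2 and at 27 h in the mutant. With TMM scaling the second high in N2 stood at 28 h, at 291.6 CPM against 266.3 CPM at 29 h. The highest hour was 3.28 times the lowest in N2 and 2.96 times the lowest in the mutant. In whole larvae, fewer cells that make a miRNA and less of it per cell cannot be told apart.

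miR-44-5p, from the third hairpin of the cluster, had the same course at a higher level. In N2 it was at 323.6, 317.3, 576.1, 714.9, 675.6, 687.4, 411.0, 177.8, 244.4, 312.0, 462.3, 471.9 and 390.7 CPM over the successive hours, the highest at 21 h and the lowest at 25 h. In the mutant it was at 392.3, 356.1, 572.7, 601.9, 551.8, 414.4, 315.0, 309.2, 267.4, 437.8, 449.2, 357.9 and 191.3 CPM. The N2 course held near its high for 3 hours before the low at 25 h, and the mutant course descended over 5 hours to 26 h. The range over the hours was 4.02-fold in N2 and 3.15-fold in the mutant. With TMM scaling the N2 range was 5.76-fold and its maximum stood at 23 h, the library with the low scaling factor.

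miR-43-5p, from the middle hairpin, was the least abundant of the cluster. Its level in N2 was 37.6, 36.0, 66.6, 111.0, 104.5, 25.3, 62.9, 47.2, 46.9, 52.1, 75.3, 88.6 and 88.3 CPM from 18 h to 30 h, and in the mutant 39.3, 44.2, 91.8, 135.8, 85.4, 67.3, 55.9, 62.9, 39.9, 88.3, 135.7, 71.5 and 36.1 CPM. Both strains were highest at 21 h, and the mutant returned to that level at 28 h. With TMM scaling the mutant's maximum stood at 28 h, at 135.9 CPM against 120.8 CPM at 21 h. The lowest N2 value, at 23 h, rests on 34 reads (95% Poisson interval 17.5 to 35.4 CPM) and stands between hours with 104.5 and 62.9 CPM. The N2 range was 4.38-fold with that library and 3.08-fold without it, and the mutant range was 3.76-fold.

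miR-45-5p, from the separate locus, had a different shape: levels were highest early, at 20 h in N2 and at 18 h in the mutant, and lowest at 30 h in both. In N2 it was at 631.8, 764.9, 910.3, 838.6, 661.0, 638.2, 415.0, 347.7, 431.4, 477.8, 468.5, 395.6 and 322.3 CPM. In the mutant it was at 920.6, 621.0, 816.9, 610.6, 606.5, 442.9, 446.9, 386.1, 484.8, 471.8, 434.9, 294.8 and 207.8 CPM. A low at 25 h and a second, smaller high at 26 to 28 h were visible in both strains, with that second high at 477.8 CPM in N2 against 910.3 CPM at the first. The range over the hours was 2.82-fold in N2 and 4.43-fold in the mutant.

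**Figure D1:**
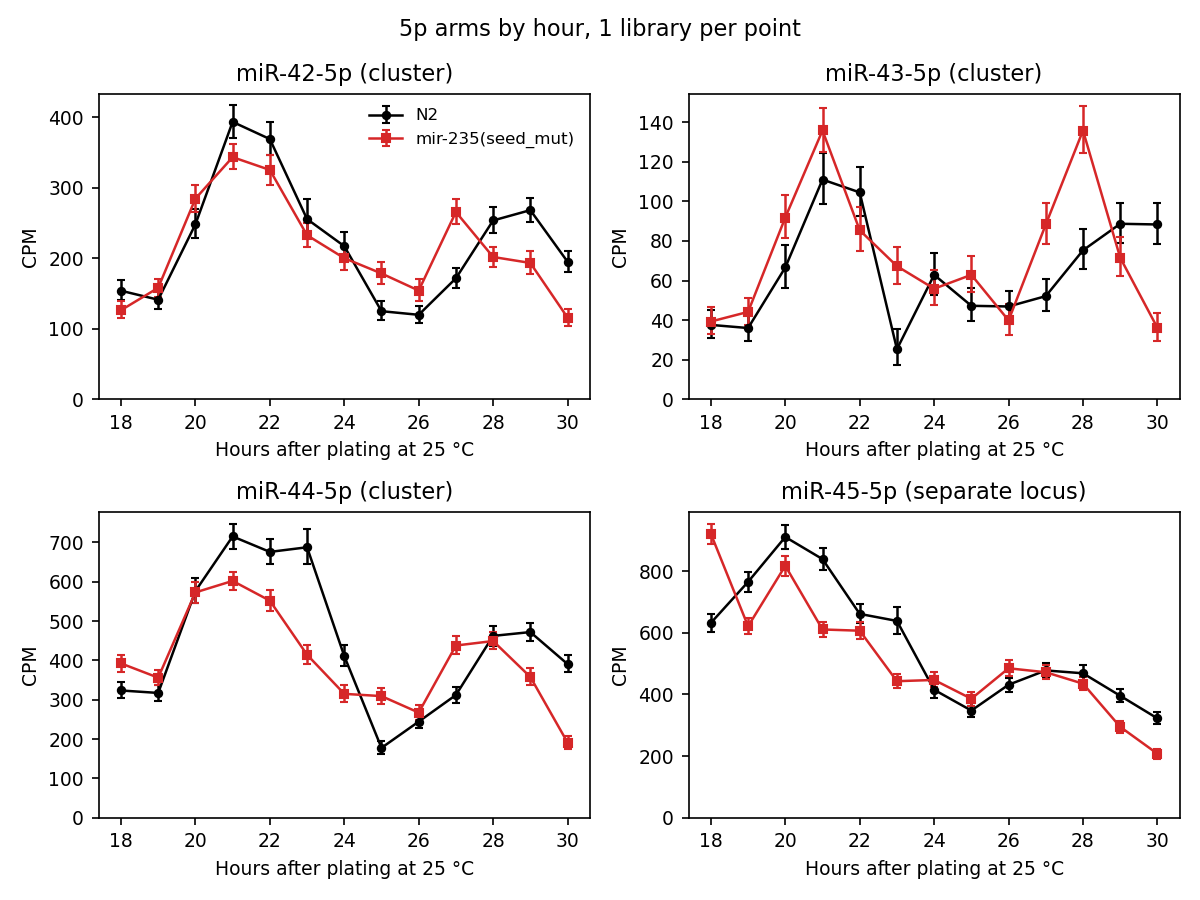
Level of each 5p arm in CPM (y axis, from 0) against hours after plating (x axis) in N2 (black circles) and *mir-235(seed_mut)* (red squares), 1 library per point with its 95% Poisson interval. The 3 cluster arms show highs at 21 to 22 h and 27 to 29 h, whereas miR-45-5p descends to 322.3 CPM in N2 and 207.8 CPM in the mutant at 30 h.

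By median over the hours, the order in N2 was miR-45-5p (478 CPM), miR-44-5p (411 CPM), miR-42-5p (217 CPM) and miR-43-5p (62.9 CPM), and in the mutant 472, 392, 200.1 and 67.3 CPM in the same order. The ranges of miR-45-5p and miR-44-5p overlapped over most of their extent. Compared within each library, miR-44-5p was ahead of miR-45-5p at 4 of 13 hours in N2 and at 2 of 13 in the mutant. miR-43-5p lay below every hour of miR-44-5p and miR-45-5p, and its range overlapped that of miR-42-5p in the mutant only, where its highest hour reached 135.8 CPM and the lowest of miR-42-5p was 115.9 CPM. Read counts of different miRNAs also carry the efficiency with which each end is ligated, so the order is one of reads.

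To put the courses on 1 scale, a cosine and a sine of a 7 h period and a line were fitted to the counts in edgeR, giving an amplitude from midline to peak in log2 units, a peak hour and a slope. In N2 the fitted amplitude was 0.78 ± 0.12 (SE) for miR-42-5p, 0.59 ± 0.14 for miR-43-5p, 0.85 ± 0.13 for miR-44-5p and 0.40 ± 0.12 for miR-45-5p. In the mutant the amplitudes were 0.47 ± 0.11, 0.70 ± 0.14, 0.46 ± 0.12 and 0.29 ± 0.11 in the same order. From trough to peak these are 2.96-, 2.28-, 3.23- and 1.74-fold cycles in N2 and 1.92-, 2.62-, 1.89- and 1.48-fold cycles in the mutant. Without N2 at 23 h the N2 amplitudes were 0.78, 0.68, 0.77 and 0.45 in the same order. The amplitude of miR-45-5p was the smallest of the 4 in each strain, which is the contrast the members were chosen on.

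The fitted peaks of the cluster lay close together. In N2 they were at 21.8 ± 0.16 h (SE) for miR-42-5p, 21.5 ± 0.29 h for miR-43-5p and 21.9 ± 0.15 h for miR-44-5p. In the mutant they were at 21.2 ± 0.27, 21.0 ± 0.24 and 21.0 ± 0.30 h in the same order. The miR-45-5p peak was at 21.1 ± 0.30 h in N2 and at 19.8 ± 0.44 h in the mutant. In N2 the SE ranges of the miR-45-5p and miR-43-5p peaks overlapped. The slope was steepest for miR-45-5p, at -0.12 ± 0.02 log2 per hour in N2 and -0.09 ± 0.02 in the mutant, and was -0.09 and -0.05 for miR-44-5p, -0.06 and -0.02 for miR-42-5p, and 0.02 and 0.01 for miR-43-5p. Ranked by amplitude among the 177 miRNAs that averaged 50 counts or more, miR-44-5p was number 6, miR-42-5p number 9, miR-43-5p number 16 and miR-45-5p number 29 in N2. In the mutant miR-43-5p was number 6, miR-42-5p number 16, miR-44-5p number 18 and miR-45-5p number 44. The median amplitude of the 4 arms was 0.69 in N2 and 0.46 in the mutant, against 0.19 and 0.20 over all 217 tested miRNAs, a gap that the choice of members fixes in part.

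The 5p arms of miR-35 to miR-41, the other hairpins of the miR-35 family and a cluster of their own, offer a comparison. Of these 7 arms, 4 passed the filter, and their amplitudes ranged from 0.17 to 1.002 with a median of 0.63 in N2 and from 0.15 to 0.70 with a median of 0.51 in the mutant. The most abundant of them, miR-41-5p, was at 20.0 to 117 CPM in N2 with a mean of 46.3 CPM, which overlaps the range of miR-43-5p (25.3 to 111.0 CPM, mean 64.8 CPM), and miR-38-5p was at no more than 1.12 CPM in any N2 library.

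miR-44-5p and miR-45-5p come from hairpins with the same guide, and their ratio within a library needs no scaling between libraries. In N2 the ratio was 0.512, 0.415, 0.633, 0.852, 1.02, 1.08, 0.990, 0.511, 0.567, 0.653, 0.987, 1.19 and 1.21 from 18 h to 30 h. In the mutant it was 0.426, 0.573, 0.701, 0.986, 0.910, 0.936, 0.705, 0.801, 0.552, 0.928, 1.03, 1.21 and 0.921. In N2 miR-45-5p was the more abundant at 18 to 21 h and at 25 to 27 h, and the arms were near parity at 22 to 24 h and at 28 h. miR-44-5p was ahead at 4 of 13 hours in N2 and at 2 of 13 in the mutant. The ratio did not follow the level of the cluster at every hour: it was 0.633 in N2 at 20 h, when miR-44-5p was at 576.1 CPM, and 0.921 in the mutant at 30 h, when miR-44-5p was at its lowest. The N2 ratio ranged from 0.415 at 19 h (95% interval 0.383 to 0.449) to 1.21 at 30 h (1.12 to 1.32), 2.92-fold, and the mutant ratio ranged 2.85-fold. These intervals cover counting error only. The fitted 7 h amplitude of the log2 ratio was 0.60 ± 0.06 (SE) in N2, with peaks at 22.4 and 29.4 h, and 0.40 ± 0.09 in the mutant, with peaks at 21.7 and 28.7 h. Leaving out the 23 h libraries gave 0.60 and 0.39.

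The 3p arms of the same hairpins cannot serve as a comparison for this ratio, because they share 1 sequence. The ratio of the miR-44-3p count to the miR-45-3p count lay between 2.90 and 2.95 in all 26 libraries, a 1.02-fold range in each strain that the shared reads fix in advance. How reads with several genomic matches were divided between the entries is not known, and the 2 entries are treated as 1 measurement.

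**Figure D2:**
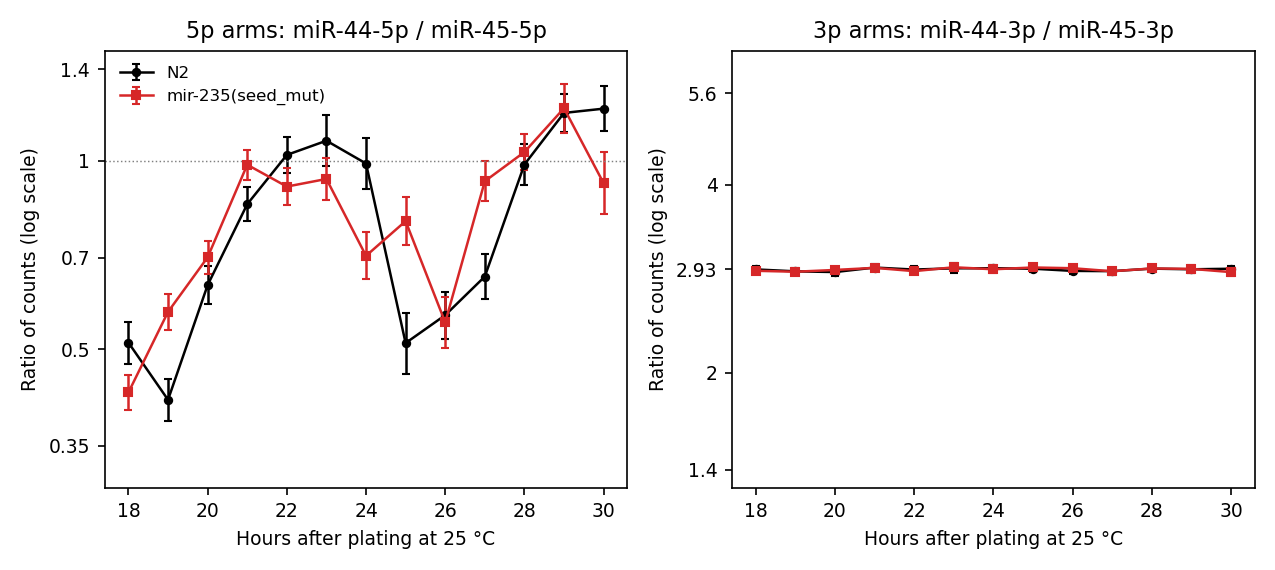
Ratio of read counts (y axis, log scale) against hours after plating (x axis) for the 5p arms of miR-44 and miR-45 (left) and for their 3p arms (right), in N2 (black) and the mutant (red), 1 library per point with 95% counting intervals. The 5p ratio runs from 0.415 to 1.21 in N2, and the 3p ratio, of entries that share their reads, stays between 2.90 and 2.95.

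Inside the cluster the ratio of miR-42-5p to miR-44-5p ranged from 0.372 to 0.703 in N2 and from 0.322 to 0.635 in the mutant. The 7 h amplitude of its log2 value was 0.06 ± 0.10 (SE) in N2 and 0.06 ± 0.11 in the mutant, so the fit resolved no cycle of this ratio. The ratio of miR-43-5p to miR-44-5p ranged from 0.0368 at 23 h to 0.266 in N2, with an amplitude of 0.38, and without 23 h its lowest value was 0.113 and its amplitude 0.15. In the mutant its amplitude was 0.25. Against miR-45-5p, the log2 ratio of miR-42-5p had amplitudes of 0.54 in N2 and 0.45 in the mutant. That of miR-43-5p had 0.24 in N2, which became 0.59 without 23 h, and 0.62 in the mutant.

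The same relations appear as correlations of log2 levels across the 26 libraries after removal of each strain's mean and line. These points share libraries, scaling and the order of the hours, and the values are descriptive. miR-42-5p and miR-44-5p had Pearson's r = 0.92 (Spearman's rho = 0.91), with 0.95 in N2 and 0.86 in the mutant over 13 libraries each. For miR-43-5p with miR-42-5p, r was 0.72 over all libraries, 0.84 in the mutant and 0.65 in N2, where it was 0.95 without 23 h. With miR-44-5p, r of miR-43-5p was 0.62 over all libraries, 0.93 in the mutant, and 0.49 in N2 with and 0.91 without 23 h. A single library thus held down both N2 values of miR-43-5p. miR-45-5p correlated with miR-44-5p at 0.70 over all libraries, with 0.78 in N2 (0.70 without 23 h) and 0.53 in the mutant. With miR-42-5p the value was 0.53 over all libraries, 0.68 in N2 (0.61 without 23 h) and 0.27 in the mutant. With miR-43-5p it was 0.29 over all libraries, 0.24 in N2 (0.54 without 23 h) and 0.36 in the mutant.

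Among 176 other miRNAs above the same count minimum, miR-42-5p and miR-44-5p were each the most like the other. miR-79-5p (r = 0.83 with miR-42-5p and 0.86 with miR-44-5p) and miR-230-3p (0.82 with each) came next for both. For miR-43-5p the most like were miR-42-5p (0.72), miR-55-5p (0.63) and miR-44-5p (0.62). For miR-45-5p they were miR-71-5p (0.87), miR-789-2-5p (0.77) and miR-230-5p (0.71), with no arm of the cluster among its closest 3. miR-44-5p, at 0.70, was close to the third of these.

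The opposite arms were then examined. miR-42 and miR-43 gave mostly 5p reads in these larvae, and miR-44 with miR-45 almost only 3p reads. The paper took the more abundant strand as the guide and, from another time course, modelled the 3p arms of miR-42 and miR-43 as guides. Read shares also carry the efficiency with which each arm's ends are ligated, so they do not by themselves name the guide. The cause of this difference from the paper was not tested. For miR-42, the 5p share of the reads of both arms was 92.4% ± 3.6 (SD over 13 hours) in N2, from 85.3% at 25 h (95% Wilson interval 81.4 to 88.4) to 97.5% at 21 h (96.4 to 98.3), and in the mutant it ranged from 80.8% at 18 h to 95.1% at 21 h. For miR-43 it ranged from 53.5% at 18 h to 87.1% at 28 h in N2 and from 57.9% at 19 h to 85.1% at 28 h in the mutant. For miR-44 and miR-45 pooled, since their 3p reads cannot be separated, the 5p share ranged from 1.14% at 25 h to 2.91% at 21 h in N2 and from 1.24% at 30 h to 2.86% at 20 h in the mutant. In N2 the share of miR-42 and the pooled share had their highest and lowest hours in common. The 3p arm levels beneath these shares differ in scale, with miR-42-3p at a median of 15.7 CPM in N2, miR-43-3p at 22.9 CPM and miR-44-3p at 35368 CPM.

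**Figure D3:**
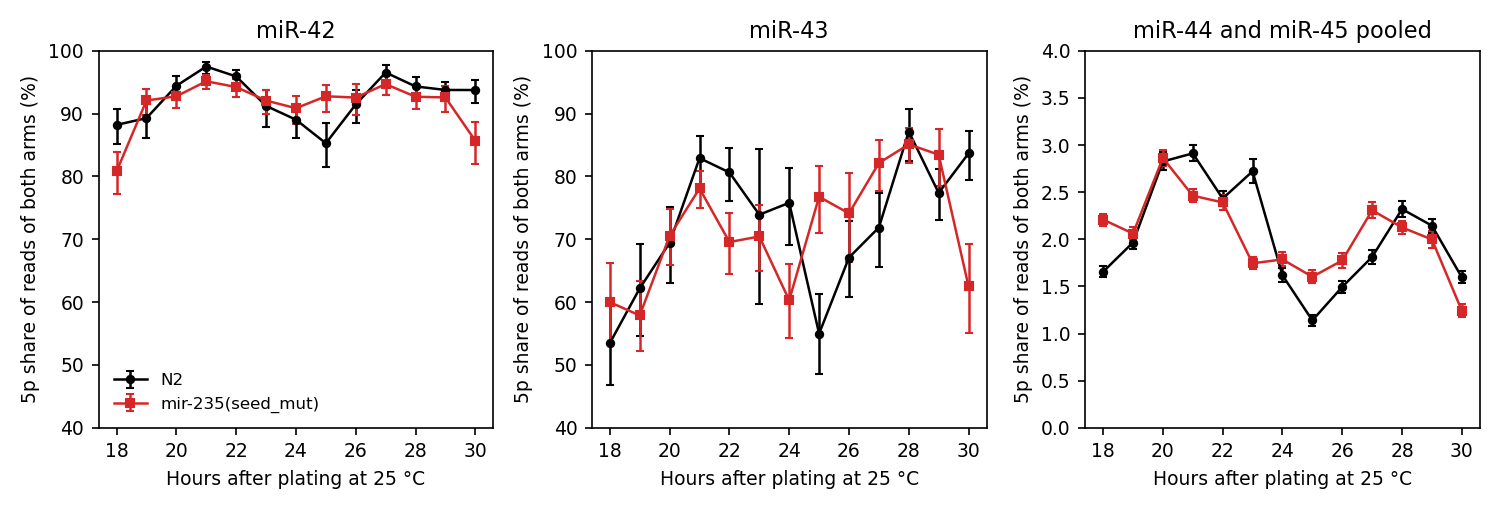
Share of the reads of both arms that came from the 5p arm, in percent (y axes, which differ between panels and start at 40% for miR-42 and miR-43), against hours after plating in N2 (black) and the mutant (red), with 95% Wilson intervals. The 5p arm makes up 80.8% to 97.5% of miR-42 reads and 1.14% to 2.91% of the pooled miR-44 and miR-45 reads.

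Whether the 3p arms cycle was tested in the same 7 h model, since the choice of members did not use them. None of the 4 entries passed an adjusted p of 0.01 in either strain (edgeR quasi-likelihood test, Benjamini-Hochberg over 217 miRNAs), where 5.99% of all tested miRNAs passed in N2 and 2.3% in the mutant. At an unadjusted p below 0.05 there was 1 of 4 in N2 and 0 in the mutant, against 49 and 42 of all 217. DESeq2 also called 0 of the 4, against 23 of all 217 in N2 and 20 in the mutant. limma called 0 as well, against 17 or 18 in N2 and 8 or 9 in the mutant, depending on the pseudocount. The largest amplitude was that of miR-42-3p in N2, 0.53 ± 0.16 (SE) with an adjusted p of 0.0824 and a peak at 23.6 h, and in the mutant it was 0.22 ± 0.15 (adjusted p = 0.722). Its counts were low, 19 to 64 reads per N2 library. miR-43-3p had amplitudes of 0.27 (adjusted p = 0.450) and 0.28 (adjusted p = 0.534). The abundant miR-44-3p had 0.04 ± 0.07 in N2 and 0.06 ± 0.07 in the mutant (adjusted p = 0.955 and 0.870), and the miR-45-3p entry, which shares its reads, had 0.03 and 0.06. The median over the 3p arms was 0.16 in N2 and 0.14 in the mutant.

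**Figure D4:**
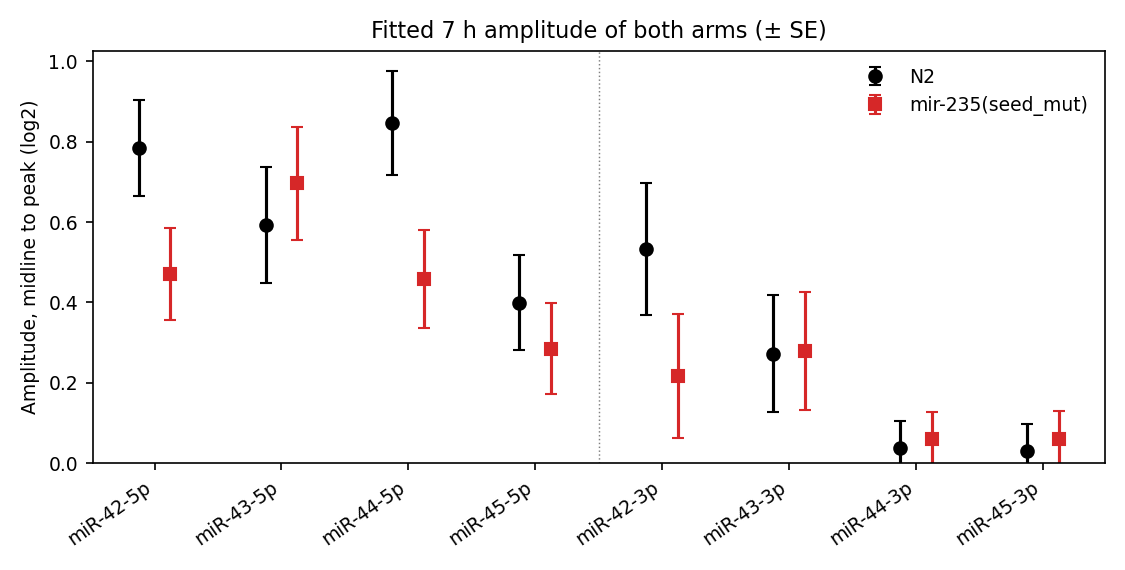
Fitted amplitude of a 7 h cycle from midline to peak in log2 units (y axis) for the 5p arms (left of the dotted line) and the 3p arms (right) in N2 (black circles) and the mutant (red squares), with SE bars. Amplitudes of the 5p arms run from 0.29 to 0.85 and those of miR-44-3p and miR-45-3p are at or under 0.06.

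The strain contrast asks whether an edit of another miRNA goes with a change in these arms. No 5p arm differed between the strains in its mean level at an adjusted p of 0.01, where 7.37% of the 217 tested miRNAs differed in either direction and 4.61% were lower in the mutant (edgeR, Benjamini-Hochberg). Before adjustment 1 of the 4, miR-45-5p, was below 0.05, against 75 of all 217. DESeq2 and limma also called 0 of the 4, against 24 and 5 of all 217. Over the 13 hours miR-42-5p averaged 224 ± 86.7 CPM (SD) in N2 and 214 ± 72.5 in the mutant, with a fitted difference, mutant minus N2, of -0.18 ± 0.11 log2 (SE, adjusted p = 0.238) and the mutant above N2 at 5 of 13 hours. Of miR-43-5p the average was 64.8 ± 27.2 and 73.4 ± 33.5 CPM, with a difference of 0.04 ± 0.14 (95% interval -0.24 to 0.32, adjusted p = 0.859). miR-44-5p averaged 443 ± 175 and 401 ± 122 CPM, with a difference of -0.26 ± 0.14 (-0.56 to 0.03, adjusted p = 0.208).

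miR-45-5p had the largest fitted difference, -0.29 ± 0.12 (-0.53 to -0.04, adjusted p = 0.0860), at 562 ± 193 CPM in N2 and 519 ± 196 in the mutant, with the mutant above N2 at 4 of 13 hours. Leaving out N2 at 23 h gave -0.15 for this arm, -0.10 for miR-44-5p and -0.09 for miR-42-5p. The ranges of the strains overlapped for each of the 4 arms. The median difference of the 5p arms was -0.22, against -0.02 over all tested miRNAs. With library totals alone as scale, the median over all miRNAs moved to 0.10, and the differences were -0.04 for miR-42-5p, 0.16 for miR-43-5p, -0.11 for miR-44-5p and -0.14 for miR-45-5p.

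Among the 3p arms, miR-44-3p with its twin entry miR-45-3p, 1 pool of reads, were lower in the mutant by the same test, each at -0.28 ± 0.07 log2 (SE, adjusted p = 0.00837) with the mutant above N2 at 3 of 13 hours. The level of miR-44-3p was on average 35575 ± 4203 CPM (SD) in N2 and 32361 ± 5288 in the mutant, and the strains overlapped. Leaving out single libraries in turn lost the call for 19 of the 26, with differences of -0.30 to -0.19 and adjusted p from 0.00439 to 0.0511. N2 at 23 h was among them (-0.19 for miR-44-3p, adjusted p = 0.0225). The call was also lost with library totals as scale (-0.14, adjusted p = 0.044) and with the hour as a block (-0.28, adjusted p = 0.0124). The fitted difference was 0.05 for miR-42-3p (adjusted p = 0.822) and 0.07 for miR-43-3p (adjusted p = 0.791).

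**Figure D5:**
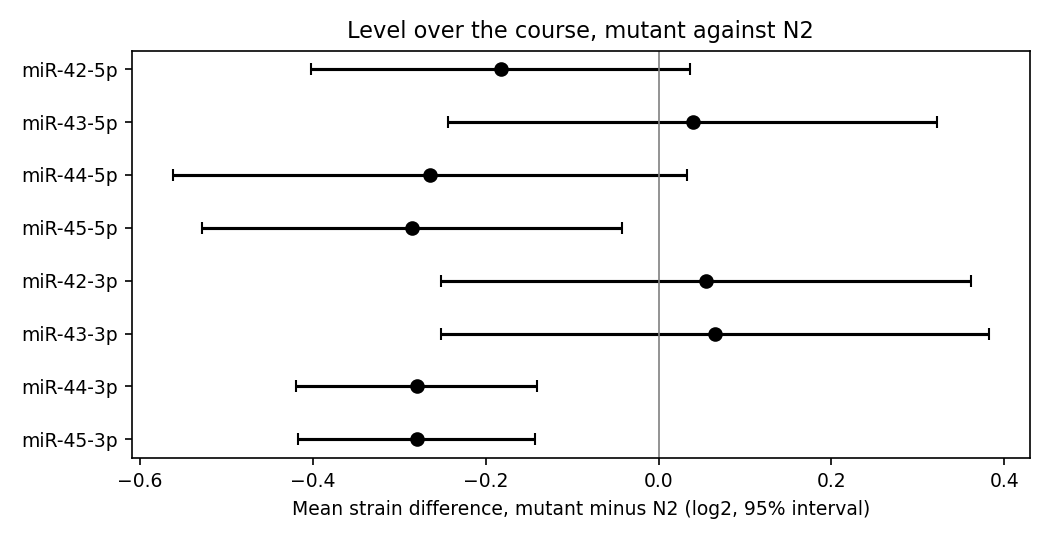
Difference in mean level over the 13 hours, mutant minus N2, in log2 units (x axis) for each arm (y axis), with 95% intervals from the edgeR fit and a line at 0. Intervals of miR-42-5p, miR-43-5p and miR-44-5p span 0, and miR-44-3p and miR-45-3p both lie at -0.28.

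The shape of the courses was compared between the strains in 2 further ways. A test of any strain difference over time, level and curve together, gave adjusted p of 0.310 for miR-42-5p, 0.462 for miR-43-5p, and 0.342 for miR-44-5p and for miR-45-5p. No miRNA passed this test (0% of 217, with 34 at an unadjusted p below 0.05, 8 adjusted calls by DESeq2, and 0 or 1 by limma, depending on the pseudocount).

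A test of the 7 h rhythm alone took cosine and sine, and so amplitude and peak, together. This joint test called none of the 4 arms, where 0.461% of all tested miRNAs were called. At an unadjusted p below 0.05 there were 2 of 4, against 17 of all 217 tested. DESeq2 and limma called 0 of the 4 arms, against 1 and 0 of all 217. The amplitude, mutant minus N2, differed by -0.39 ± 0.18 log2 (SE) for miR-44-5p and by -0.31 ± 0.17 for miR-42-5p, with fitted peaks 0.89 and 0.66 h earlier in the mutant. The joint test gave adjusted p of 0.301 and 0.569, and the amplitude difference alone was not tested. Without N2 at 23 h the amplitude differences were -0.29 and -0.28 (joint test, adjusted p = 0.375 and 0.484). Setting the mutant's hours 1 h earlier than labelled moves its earlier peaks further from those of N2. The amplitude differences were then -0.35 and -0.37, and the joint test passed the threshold (adjusted p = 0.000686 and 0.000801), among 12 miRNAs called. With those hours set 1 h later, toward N2, they were -0.39 and -0.31 (adjusted p = 0.6585 for both), and 0 miRNAs were called. Of the shifts, only the one that widened the peak gap gave these calls. The amplitude of miR-43-5p differed by 0.10 ± 0.20 (joint test, adjusted p = 0.893) and that of miR-45-5p by -0.11 ± 0.16 (adjusted p = 0.683). None of the 4 slopes differed between the strains by the test (adjusted p from 0.719 to 0.964). At an unadjusted p below 0.05 there were 0 of 4, against 15 of all 217. edgeR, DESeq2 and limma each called 0 of the 4 slopes and 0 of all 217.

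The ratio of miR-44-5p to miR-45-5p was also compared between the strains. Its mean log2 value was -0.38 ± 0.53 (SD over 13 hours) in N2 and -0.34 ± 0.43 in the mutant. The difference within hours, mutant minus N2, averaged 0.04 ± 0.35 log2 (SD) and was positive at 7 of 13 hours (two-sided permutation test over all 8192 sign flips, p = 0.690), so it was smaller than its spread over the hours.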

How the data were processed

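Whole-larva small RNA libraries (13 per strain, CleanTag kit) were read on an Illumina NextSeq as single ends. The authors trimmed adapters, used Bowtie, run from QuasR on the ce10 genome with many matches allowed per read, and deposited raw counts of same-strand reads starting near the 5′ end of each mature miRNA. For Bowtie no version was stated in the sources used. The authors also deposited log2 values, which match scaled counts with a pseudocount of 8 to within 0.0005. The members and lists were chosen with earlier results of these data known. Those named are the 4 members, their opposite arms and, for each member, the 3 miRNAs with the highest correlation.

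Counts were analysed with edgeR 4.0.16 in R 4.3.3 (TMM, filterByExpr, robust quasi-likelihood fit), with a spline of 6 components for strain differences and a 7 h cosine, sine and line for rhythm, adjusted over 217 miRNAs at 0.01. 48 listed sequences were at 0 in every library. The reads of both miR-235 alleles were summed per arm. Depth was 1342771 to 4279734 counts. Intervals of levels, ratios and shares cover counting error only, whereas those of the strain differences come from the edgeR fit over the libraries. Libraries of the same hour deviated together across miRNAs (correlations of 0.100 to 0.905), and the hours were taken to pair the strains. Those values include the time trend that the strains share, and after removal of each strain's line they were -0.276 to 0.708. P-values measure the spread between successive hours of 1 culture series per strain, not between independent cultures. Alternatives were DESeq2 1.42.0, limma 3.58.1 on the log2 values, other scalings, filters, periods and time shifts, and leaving out libraries. The scripts were tested on simulated data.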

Additional observations from a re-analysis of the deposited data

How the results depend on the processing

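For the 5p arms, the mean strain difference missed the threshold under all 39 alternatives per arm. Its sign turned for miR-43-5p (-0.0218 to 0.1389 over single libraries left out) and for miR-42-3p (-0.00613 to 0.1545). With the replicate block by hour, the differences of miR-42-5p and miR-45-5p were -0.18 and -0.27, and no 5p call changed. The call of miR-44-3p, lost with that block, was lost in 25 of 39 alternatives. With the mutant 1 h earlier, which moves its peaks further from those of N2, any strain difference of miR-42-5p had an adjusted p of 0.00488. The amplitude differences of miR-42-5p and miR-44-5p were then -0.37 and -0.35, and the joint rhythm test of both passed the threshold. With the mutant 1 h later neither arm passed it (adjusted p = 0.6585 for both). With an 8 h period, the amplitude difference of miR-43-5p was -0.035 and the mutant amplitudes of miR-42-5p and miR-43-5p were 0.32 and 0.54. The mutant amplitude of miR-43-5p ranged from 0.62 to 0.86 over single libraries left out, the highest without 25 h. The strain difference in the ratio of miR-44-5p to miR-45-5p was -0.0282 with the mutant 1 h later, -0.0117 to 0.0832 without single hours, and 0.04 without a replicate block (permutation p = 0.839). The cause of these changes was not tested. Leaving out the 23 h libraries, chosen after seeing the data, changed no call of a 5p arm. Counts over all miRNAs moved more: higher in the mutant 6 (0 to 17), lower 10 (1 to 18), rhythmic in N2 13 (6 to 25), in the mutant 5 (1 to 23), with a rhythm difference 1 (0 to 12), and with any difference 0 (0 to 8). Depth limits miR-42-3p (19 to 64 reads per N2 library) and miR-43-3p (12 to 104).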
